A study of Homo sapiens with 18 samples.

Results

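A549 cells, a human lung adenocarcinoma line, were depleted of PPP2R2A with either of 2 short hairpin RNAs. The comparison asks which genes and functions separate those hairpins from each other, without the control hairpin. It used the A549 libraries labelled shPPP2R2A-1 (n = 3) and shPPP2R2A-2 (n = 3), chosen by label alone, which are 6 of the 18 samples of the series. The other samples are the 3 A549 libraries with the control hairpin (shcon) and the same 3 hairpin groups in H1299, another non-small cell lung cancer line. Per the labels, all cells grew in DMEM with fetal bovine serum, and libraries were made with a stranded mRNA kit. The study describes its knockdown (KD) cells as pooled populations, so an expression level is an average over cells, and fewer cells of a state and less RNA per cell cannot be told apart.

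PPP2R2A encodes B55α, a regulatory subunit that directs the PP2A phosphatase core to its substrates and, in dividing cells, acts on proteins of mitotic exit. A short hairpin RNA is processed into a small RNA that guides Argonaute proteins to its target transcript. Each hairpin has a guide sequence of its own, so guides to 1 transcript can also pair with different other transcripts, and the cells that carry them are separate transduced populations. A difference between hairpins can therefore not be told apart from a difference between the populations that carry them.

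Gene counts came to 40912473 to 47239167 in the shPPP2R2A-1 libraries, 46781609 to 48246662 in the shPPP2R2A-2 libraries and 48438147 to 60152098 in A549 shcon. The first principal component of the 6 libraries took 58.7% of the variance and separated the hairpins, and the second took 18.6% and set replicate 3 of shPPP2R2A-1 apart from every other library. Epithelial markers summed to 9930.1 to 26312 CPM (counts scaled to a common library total) in the 6 libraries, with KRT8 and KRT18 the highest, whereas EPCAM was at 1.66 to 5.95 CPM. Leukocyte markers were near 0, with 11 of 13 under 1 CPM in every library and a sum of 6.08 to 9.22 CPM. Fibroblast markers summed to 37.9 to 72.2 CPM under shPPP2R2A-1 and to at least 72.2 CPM in every shPPP2R2A-2 library, and endothelial markers to 5.87 to 43.2 and 16.6 to 36.4 CPM. Over the 6 fibroblast markers with enough counts to be tested, the median level went the other way. It was 3.10 to 4.53 CPM under shPPP2R2A-1 and 1.38 to 2.06 CPM under shPPP2R2A-2. The part of these marker levels in the results below was not tested. The share of mitochondrially encoded counts was 0.25% to 0.49% and 0.38% to 0.46%, respectively.

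edgeR's quasi-likelihood test covered 16672 genes and called 1715 (10.3%) higher and 1412 (8.47%) lower under shPPP2R2A-2, a call being an adjusted p under 0.05. A difference is given throughout as the log2 of shPPP2R2A-2 over shPPP2R2A-1, so that a positive value is higher with shPPP2R2A-2. The median difference over all genes was -0.01, and the median size of a called difference was 1.2. Tested against a 2-fold difference, 316 genes (1.90%) were higher and 135 (0.810%) lower. Among the called genes, 415 were more than 4-fold higher and 228 more than 4-fold lower. The libraries of the hairpins did not overlap at all in 6482 genes (38.9%). The counts depended on single libraries. Leaving out replicate 3 of shPPP2R2A-1 gave 2700 higher and 2282 lower genes. For replicate 2 of shPPP2R2A-1 these were 999 and 693, for replicate 2 of shPPP2R2A-2 they were 918 and 523, and for replicate 3 of shPPP2R2A-2 they were 1311 and 933.

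**Figure D1:**
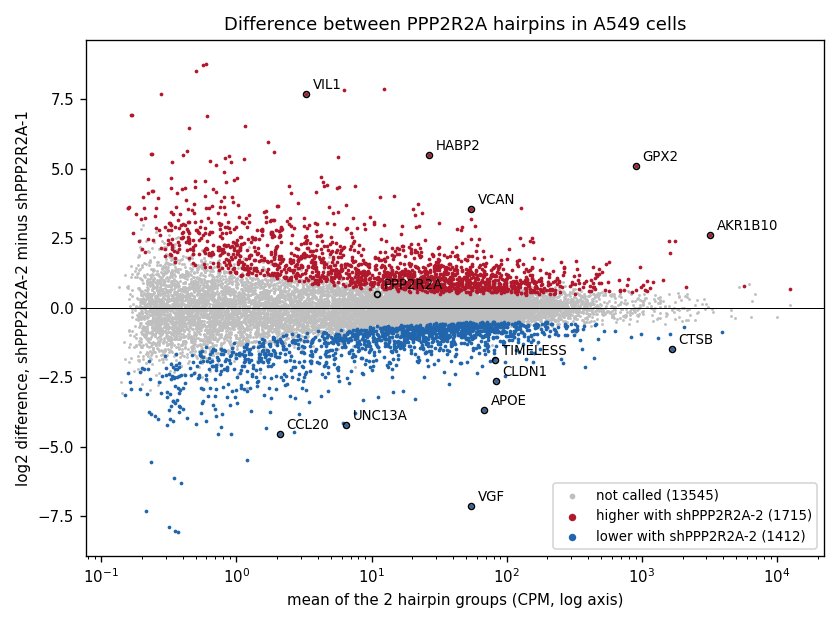
Log2 difference between the hairpins (shPPP2R2A-2 minus shPPP2R2A-1, vertical axis) against the mean level of the 2 hairpin groups (CPM, log axis) for 16672 genes in A549 cells, 1 point a gene. The 1715 genes called higher and the 1412 called lower spread over the whole range of levels, with GPX2 and AKR1B10 among the most abundant genes that were higher, CTSB among the most abundant that were lower, and PPP2R2A itself among the genes not called.

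PPP2R2A itself did not separate the hairpins in the test. PPP2R2A was at 9.04, 10.9 and 7.34 CPM in the shPPP2R2A-1 libraries, at 10.7, 13 and 15.2 CPM in the shPPP2R2A-2 libraries, and at 83.3, 48.0 and 84.7 CPM in shcon. Every KD library was below every shcon library, and the hairpins overlapped, since replicate 2 of shPPP2R2A-1 was above replicate 1 of shPPP2R2A-2. The difference was 0.52 (SE 0.23, adjusted p = 0.14, edgeR). In H1299 the same contrast was 1.08 (adjusted p = 0.017), and the difference between the lines was -0.59 (adjusted p = 0.49).

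Of 30 tested PP2A subunits and regulators, 1 was higher and 2 were lower, against 10.3% and 8.47% of all genes. PPP2R5C, a B56 regulatory subunit, was higher at 119, 119 and 124 CPM against 87.9, 90.0 and 57.3 CPM (0.63, SE 0.19, adjusted p = 0.044). PPP2R5A, another B56 subunit, and STRN, the striatin scaffold of a PP2A kinase complex, were lower by log2 -0.56 (adjusted p = 0.045) and -0.77 (adjusted p = 0.047). Of 18 tested genes of small RNA processing, none was higher and 2 were lower, the Argonaute AGO2 (-0.68, SE 0.21, adjusted p = 0.048) and XPO5, the exporter of small RNA precursors (-0.53, SE 0.16, adjusted p = 0.046). In all 5 genes the groups did not overlap, but all 5 calls were lost when replicate 1 or 2 of either hairpin was left out, and all but XPO5 when replicate 3 of shPPP2R2A-2 was. When replicate 3 of shPPP2R2A-1 was left out, 3 PP2A genes were higher and 6 lower.

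The genes most strongly higher with shPPP2R2A-2 included a plasma protease, an antioxidant enzyme and a hormone carrier. HABP2, a hyaluronan-binding plasma protease, was at 48.5, 47.5 and 61.6 CPM under shPPP2R2A-2 but only 1.08, 1.2 and 1.17 CPM under shPPP2R2A-1. The lowest shPPP2R2A-2 library was thus far above the highest shPPP2R2A-1 library, and the shcon libraries, at 2.78, 12.9 and 10.7 CPM, lay between them. No overlap between the hairpins was a condition for the 12 highest genes, HABP2 among them. The difference for HABP2 was 5.52 (SE 0.23, adjusted p = 3e-06), the smallest p of the comparison. GPX2, the gastrointestinal glutathione peroxidase, was at 1918, 1744 and 1600.2 CPM against 63.0, 67.5 and 22.3 CPM, and at 304, 1609 and 900.5 CPM with shcon. The difference was 5.12 (SE 0.40, adjusted p = 0.00010), and GPX2 was by far the most abundant of the 12 genes with the highest differences. SERPINA6, the cortisol-binding globulin, was at 14.6, 9.90 and 8.70 CPM against 0.280, 0.124 and 0.367 CPM (5.44, SE 0.42, adjusted p = 0.00010).

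Promoter sequences of GPX2 and SERPINA6 are shown because these genes were among the 12 with the highest differences and because both hold letters matching a motif of antioxidant gene control. The windows run from 250 bases before to 50 bases after the RefSeq start (GRCh38.p14, 5′ to 3′ on the strand of the gene), at chr14:64942696-64942995 for GPX2 and chr14:94323287-94323586 for SERPINA6, both on the minus strand. Capitals mark matches, on either strand, to TGACNNNGC, the core of the antioxidant response element bound by NRF2 with small MAF proteins.
GPX2: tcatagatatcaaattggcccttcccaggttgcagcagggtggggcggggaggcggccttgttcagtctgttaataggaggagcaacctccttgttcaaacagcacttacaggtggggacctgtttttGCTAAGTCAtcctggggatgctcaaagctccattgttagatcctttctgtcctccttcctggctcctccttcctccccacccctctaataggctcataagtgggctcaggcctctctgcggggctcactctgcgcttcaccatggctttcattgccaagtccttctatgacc
SERPINA6: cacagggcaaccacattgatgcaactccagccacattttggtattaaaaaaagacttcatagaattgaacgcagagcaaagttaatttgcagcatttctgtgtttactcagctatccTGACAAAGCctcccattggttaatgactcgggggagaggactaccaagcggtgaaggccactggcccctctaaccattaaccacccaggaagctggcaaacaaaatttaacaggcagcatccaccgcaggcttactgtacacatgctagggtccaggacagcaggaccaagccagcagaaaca
TGACNNNGC was in 13.6% of 27305 RefSeq promoters of this length, in 2 of the 7 promoters found for the 12 genes with the highest differences (GPX2 and SERPINA6) and in 3 of the 8 found for the 12 with the lowest. Among called members of the list of NRF2 targets and detoxification genes described below, 2 of 13 promoters found (15.4%) held it, near the share of all promoters. The motif was chosen with the results known, and a match describes letters in a window, not binding.

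Several other genes near the top of the comparison were close to absent with shPPP2R2A-1. VIL1, which encodes villin of the microvillus core, had 1, 2 and 1 counts with shPPP2R2A-1 and was at 10.1, 3.79 and 5.76 CPM with shPPP2R2A-2. CALY, which encodes the vesicle protein calcyon, had 6, 0 and 1 counts and was at 18.6, 10.1 and 8.47 CPM with shPPP2R2A-2, and AL450307.1, a protein-coding gene without a described role, had 11, 1 and 2 counts and was at 26.4, 35.4 and 12.2 CPM. Both were also near 0 with shcon, at 0.0652 CPM or less, whereas VIL1 was at 0.509, 2.32 and 1.84 CPM there. Fitted differences of these 3 genes, 7.69 to 7.88, rest on so few counts that their size is uncertain, though each was called at an adjusted p of 0.00010 to 0.00015.

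Among the genes with the smallest p, VCAN, which encodes the matrix proteoglycan versican, was at 85.2, 111 and 108 CPM under shPPP2R2A-2 against 8.54, 9.61 and 7.69 CPM with shPPP2R2A-1 (3.57, SE 0.19, adjusted p = 2.5e-05). SMPD1, the lysosomal acid sphingomyelinase, was at 80.6, 97.5 and 115 CPM against 12.5, 8.31 and 11.4 CPM (3.19, SE 0.23, adjusted p = 0.00010). PRSS3, which encodes mesotrypsin, PRODH, the proline dehydrogenase, and MUC13, a transmembrane mucin, were higher by 3.36, 4.03 and 2.28 at adjusted p of 8e-05, 0.00010 and 0.00010. None of these 5 genes overlapped between the hairpins. Others of the 12 highest were SLCO5A1 (4.71), an organic anion transporter family member, the long noncoding RNA LINC00887 (4.54), UGT2B15 (4.43), a steroid glucuronosyltransferase, HHIP (4.40), a hedgehog-binding inhibitor and the cytochrome P450 gene CYP4F12 (4.38). Reads of UGT2B15, CYP4F12, PRSS3 and the AKR1, IFITM and GBP genes below can be shared with close paralogs, so values of single members of these families are uncertain.

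**Figure D2:**
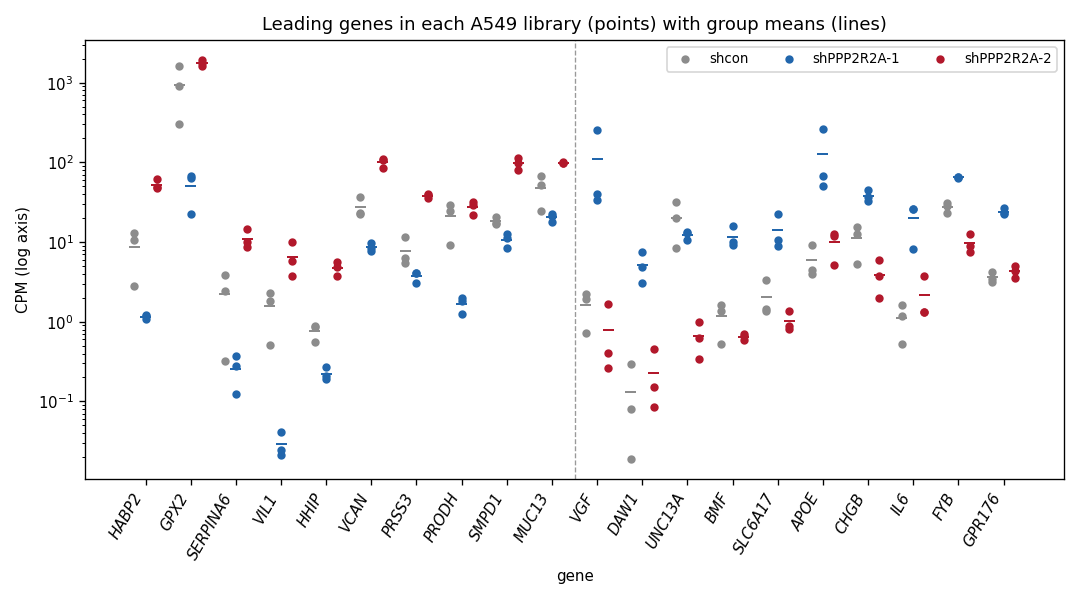
CPM (log axis) of 20 of the genes with the largest or best supported differences in each A549 library, with a point per library and a short line at each group mean. The 10 genes left of the dashed line were higher and the 10 right of it lower with shPPP2R2A-2. The hairpins overlapped for none of them, which was a condition of choice for most, and did not overlap in 38.9% of all genes tested. shcon lay between the hairpins for HABP2 and VIL1, whereas its range overlapped that of shPPP2R2A-2 for BMF and GPR176.

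Detoxification genes called different between the hairpins were nearly all higher with shPPP2R2A-2. A549 carries a KEAP1 mutation that keeps NRF2, the transcription factor of the antioxidant response, active without added stress, and its targets include aldo-keto reductases and glutathione enzymes. Of 47 tested NRF2 targets and detoxification genes, 18 (38.3%) were higher and 1, the aldose reductase AKR1B1, was lower, against 10.3% and 8.47% of all genes. The median over the list was 0.58, against -0.01 over all genes. The higher members included the steroid-converting aldo-keto reductases AKR1C1, AKR1C2 and AKR1C3, the retinal reductase AKR1B10 with its neighbour AKR1B15, the epoxide hydrolase EPHX1 and the pentose phosphate enzyme TALDO1.

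AKR1B10 was at 5323, 5588 and 5622 CPM under shPPP2R2A-2 against 1224, 1029 and 459 CPM with shPPP2R2A-1 (2.62, SE 0.32, adjusted p = 0.00082). AKR1C3 was at 2727, 2847 and 2393 CPM against 574, 589 and 349 CPM (2.41, SE 0.23, adjusted p = 0.00029). For both genes the groups did not overlap, and shcon, at 2461 to 3356 CPM for AKR1B10 and 1496 to 2878 CPM for AKR1C3, was above shPPP2R2A-1. EPHX1 was higher by 1.67 (SE 0.22, adjusted p = 0.0012), and AKR1C1, AKR1C2, AKR1B15 and TALDO1 by 1.43, 1.97, 2.30 and 1.21 at adjusted p of 0.0013 to 0.0021. In the comparisons with shcon, which share its 3 libraries, 1 listed gene was higher and 18 were lower for shPPP2R2A-1, and 6 were higher and 3 lower for shPPP2R2A-2. Over all genes those comparisons called 7.34% higher and 6.34% lower, and 10.6% higher and 9.94% lower. With 1 library left out, 15 to 22 of the listed genes were called higher, and AKR1B1 lost its call without any 1 library other than replicate 1 of shPPP2R2A-1. Without replicate 3 of shPPP2R2A-1, 2 other listed genes were lower. In H1299, where many of these genes were barely expressed, 4 of 35 were higher and 2 lower, close to the 8.55% and 5.95% of all genes tested there.

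Calls among membrane transporters of lipids and drugs were all in that direction too. Of 26 tested ABC and organic ion transporters, 14 (53.8%) were higher and none was lower, with a list median of 0.90, against 10.3% and 8.47% of all genes called. SLC22A3, an organic cation transporter, was at 84.8, 111 and 118 CPM under shPPP2R2A-2 against 22.9, 17.3 and 16.3 CPM with shPPP2R2A-1 (2.48, SE 0.21, adjusted p = 0.00013), without overlap. ABCA3, the lamellar body lipid transporter of alveolar type II cells, was at 83.3, 112 and 123 CPM against 28.8, 18.8 and 42.8 CPM (1.82, SE 0.29, adjusted p = 0.0026). ABCA7, SLC22A18 and the drug exporters ABCC1 and ABCC3 were higher by 1.87, 1.92, 1.10 and 0.91, and the cholesterol exporter ABCG1, also higher, had 2, 3 and 2 counts with shPPP2R2A-1 and was at 1.43, 3.14 and 5.59 CPM with shPPP2R2A-2. ABCC1 and ABCC3 also stood in the detoxification list. The list count was 7 without replicate 2 of shPPP2R2A-1 and 8 without replicate 2 of shPPP2R2A-2, and 8 of 18 tested members were higher in H1299 and none lower, against 8.55% and 5.95% of the genes tested there.

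Epithelial junction genes called different were also mostly higher with shPPP2R2A-2. Of 28 tested members, 12 (42.9%) were higher and 1 was lower, against 10.3% and 8.47% of all genes. The list median was 0.83. CLDN2, a pore-forming claudin of leaky epithelia, was at 214, 161 and 128 CPM against 42.2, 44.1 and 31.2 CPM (2.11, SE 0.23, adjusted p = 0.00047). CLDN1, a sealing claudin, went the other way as the only member called lower, at 32.7, 20.7 and 16.2 CPM against 127, 137 and 166 CPM (-2.62, SE 0.27, adjusted p = 0.00039). Neither claudin overlapped between the hairpins. PKP3 and JUP of desmosomes were higher by 1.68 (adjusted p = 0.00078) and 1.29 (adjusted p = 0.0020). CDH1, which encodes E-cadherin, was higher by 1.15 (adjusted p = 0.0054), the P-cadherin gene CDH3 by 2.77 and the tight junction scaffold TJP3 by 2.94 (adjusted p = 0.0011 for both). MARVELD3, a tight junction protein at no more than 1.08 CPM, was higher by 3.65 (adjusted p = 0.0085). A library's median level over the list was 7.16 to 11 CPM under shPPP2R2A-1 and 9.88 to 13.5 CPM under shPPP2R2A-2, so the list medians overlapped. Members higher were 8 without replicate 2 of shPPP2R2A-1, 10 without replicate 2 or 3 of shPPP2R2A-2 and 14 without replicate 3 of shPPP2R2A-1. Members lower were 2 without replicate 3 of shPPP2R2A-1 and 2 without replicate 3 of shPPP2R2A-2.

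Of 20 tested transcription factors of the endodermal and lung lineage, 7 (35.0%) were higher and 1, CEBPB, was lower. Over all genes, 10.3% were higher and 8.47% lower. HNF4A, which drives hepatocyte and enterocyte genes, was at 32.3, 35.4 and 34.7 CPM against 10.1, 7.12 and 6.85 CPM (2.09, SE 0.21, adjusted p = 0.00039). The 3 shPPP2R2A-2 libraries were above all 3 shcon libraries for HNF4A, and the 3 shPPP2R2A-1 libraries were below them. SOX9 of airway progenitors and ONECUT2 of the hepatic lineage were higher by 1.86 and 2.17 at adjusted p of 0.00047 and 0.00056. The lower call of CEBPB was lost without any 1 library other than replicate 1 of shPPP2R2A-1.

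Secretory cell and calcium-binding genes were next. Of 15 tested mucus and secretory cell genes, 6 (40.0%) were higher and none lower, with a list median of 1.19, and of 19 S100 proteins and annexins, 7 (36.8%) were higher and none lower, with a median of 0.47. The shares over all genes were 10.3% and 8.47%. AGR2, a protein disulfide isomerase needed for mucin folding, was at 564, 678 and 1351 CPM against 249.7, 346 and 238 CPM (1.65, SE 0.31, adjusted p = 0.0057), without overlap. CEACAM6, an epithelial adhesion protein, and MUC5B, a gel-forming airway mucin, were higher by 3.55 (adjusted p = 0.0020) and 2.0 (adjusted p = 0.0048). MUC5B was nonetheless lower with both hairpins than with shcon, at 3.34 to 7.03 CPM and 14 to 30.4 CPM against 38.4 to 196 CPM. S100A10, a plasma membrane partner of annexin A2, was higher by 1.46 and the annexins ANXA3, ANXA4 and ANXA13 by 1.2, 1.58 and 2.01 at adjusted p of 0.0013 to 0.0025. Annexin and S100 genes called higher were 4 without replicate 2 of shPPP2R2A-2, and 1 was lower without replicate 1 of shPPP2R2A-2.

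**Figure D3:**
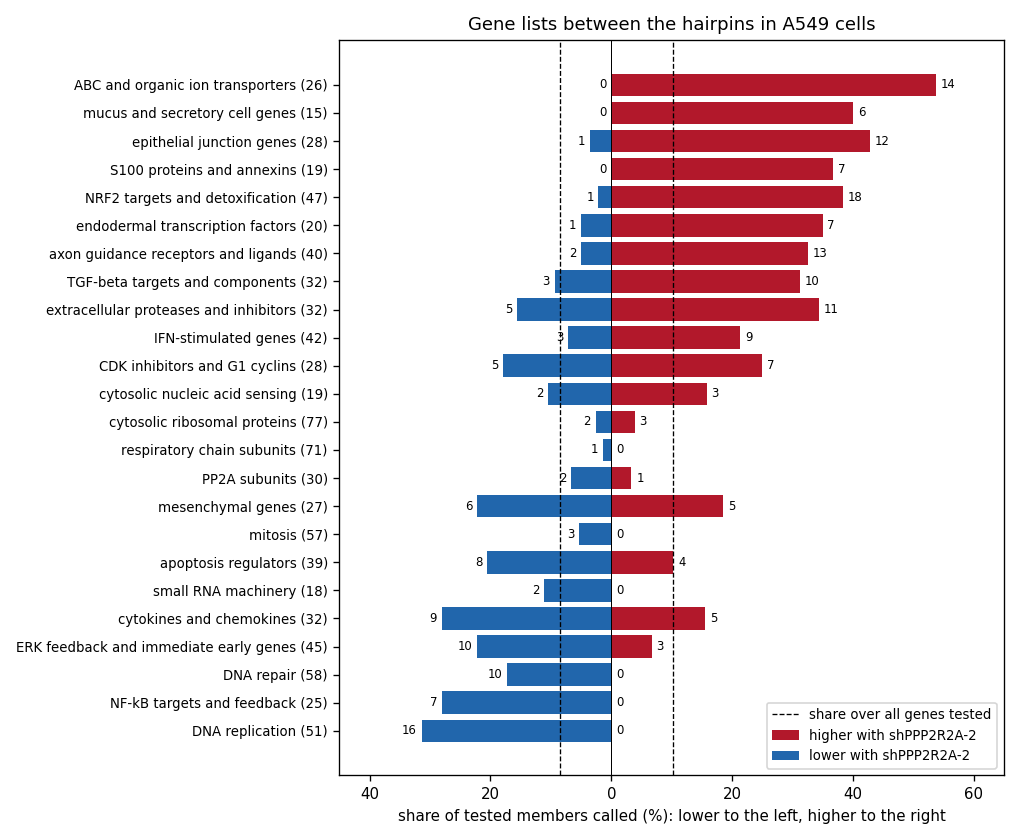
Share of the tested members of 24 gene lists called higher (red, to the right) or lower (blue, to the left) with shPPP2R2A-2 in A549 cells, with the number of genes at the end of each bar and the number tested in parentheses. The dashed lines mark the 10.3% higher and 8.47% lower of all genes tested, and transporters, epithelial junction genes and secretory cell genes reached furthest to the right, DNA replication genes, NF-kB targets and cytokines furthest to the left.

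The genes most strongly lower with shPPP2R2A-2, and so higher with shPPP2R2A-1, included genes of regulated secretion. VGF, a secreted neuropeptide precursor, was at 39.8, 33.8 and 255 CPM under shPPP2R2A-1 against 1.67, 0.403 and 0.260 CPM with shPPP2R2A-2, with 0.717 to 2.25 CPM with shcon. The groups did not overlap, which was a condition for the 12 lowest genes, and replicate 3 of shPPP2R2A-1 was far above its group. The difference was -7.13 (SE 0.99, adjusted p = 0.0014), and -5.57 without that library. CHGB, the secretory granule protein chromogranin B, was at 32.5, 44.6 and 37.2 CPM against 5.95, 1.97 and 3.75 CPM (-3.28, SE 0.36, adjusted p = 0.00051). UNC13A, which primes synaptic vesicles, was at 13, 13.2 and 10.7 CPM against 0.628, 0.339 and 0.996 CPM (-4.21, SE 0.37, adjusted p = 0.00019). For UNC13A it was shPPP2R2A-2 that stood away from shcon, which was at 8.49 to 32.2 CPM, whereas VGF stood away from shcon with shPPP2R2A-1. SLC6A17, a vesicular amino acid transporter, was lower by -3.77 (adjusted p = 0.00049). SCG3, a further secretory granule protein named after its values were seen, had 0 counts in all 3 shPPP2R2A-2 libraries and 22, 40 and 37 counts with shPPP2R2A-1, at least 11.4-fold higher against a floor of 3 counts in a library.

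BMF, a BH3-only protein that promotes apoptosis, had the smallest p among the lower genes, at 9.15, 10.1 and 15.8 CPM under shPPP2R2A-1 against 0.671, 0.594 and 0.693 CPM with shPPP2R2A-2 (-4.15, SE 0.32, adjusted p = 0.00010). FYB, an adaptor protein of immune cells, was at 64.5, 66.5 and 65.7 CPM against 7.49, 8.97 and 12.5 CPM (-2.75, SE 0.22, adjusted p = 0.00010), and GPR176, an orphan receptor of the circadian clock, at 23.3, 22.4 and 26.8 CPM against 4.29, 3.54 and 5.04 CPM (-2.48, SE 0.22, adjusted p = 0.00021). The heparan sulfate proteoglycan SDC4 was lower by -1.96 (adjusted p = 0.00028). KRTAP1-5, a hair keratin-associated gene, was at 2.06 to 2.7 CPM under shPPP2R2A-1 but had 3, 1 and 3 counts under shPPP2R2A-2. None of the 5 overlapped between the hairpins, a condition that BMF had to meet as 1 of the 12 lowest genes.

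APOE, which encodes a lipid carrier, was at 68.1, 50.7 and 263 CPM against 11.9, 12.8 and 5.13 CPM (-3.67, SE 0.62, adjusted p = 0.0034) and was again highest in replicate 3 of shPPP2R2A-1, without which the difference was -2.58. The remaining genes of the 12 lowest were DAW1 (-4.46), an assembly factor of ciliary dynein, the pseudogene POM121L9P (-3.82), the epidermal gene SBSN (-3.39), the long noncoding RNA RP11-184M15.1 (-3.30), the retinol dehydrogenase gene DHRS9 (-3.23) and IL6. With no filter on low counts the calls of VGF, APOE, SBSN and RP11-184M15.1 were lost at adjusted p of 0.069, 0.11, 0.093 and 0.22. SBSN was also lost without replicate 2 of shPPP2R2A-2, and RP11-184M15.1 without that library or without replicate 3 of shPPP2R2A-1.

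Among inflammatory genes, more were lower than higher with shPPP2R2A-2. Of 25 tested NF-kB targets and feedback genes, none was higher and 7 (28.0%) were lower with shPPP2R2A-2, and of 32 cytokines and chemokines 5 (15.6%) were higher and 9 (28.1%) lower, with list medians of -0.36 and -0.30. Shares over all genes were 10.3% higher and 8.47% lower. IL6, the cytokine of the acute phase response, was at 8.15, 26.1 and 25.8 CPM against 1.32, 3.77 and 1.34 CPM under shPPP2R2A-2, where shcon was at 0.521 to 1.64 CPM (-3.21, SE 0.53, adjusted p = 0.0031). CCL20, a chemokine for CCR6-bearing cells, was at 1.73, 5.47 and 4.90 CPM against 0.238, 0.148 and 0.130 CPM (-4.52, SE 0.53, adjusted p = 0.00072). For both genes the ranges of shPPP2R2A-2 and shcon overlapped, and the hairpins did not. SOD2, the mitochondrial superoxide dismutase, was at 182, 171 and 186 CPM against 85.0, 97.9 and 82.4 CPM (-1.01, SE 0.15, adjusted p = 0.0022), and TNFAIP3, which encodes the feedback inhibitor A20, at 14.1, 23.2 and 32.7 CPM against 8.75, 10.3 and 9.89 CPM (-1.27, SE 0.29, adjusted p = 0.014).

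The adhesion molecule ICAM1 and the macrophage growth factor CSF1 were lower by -1.68 (adjusted p = 0.0034) and -1.52 (adjusted p = 0.00092). VCAM1, a vascular adhesion molecule, had 20, 63 and 16 counts with shPPP2R2A-1 and 0 with shPPP2R2A-2, at least 11-fold higher with shPPP2R2A-1, and IL24 had 11, 30 and 18 counts against 0, at least 6.70-fold higher, both against 3 counts in a library. With such genes at these bounds the list medians were again -0.36 and -0.30. In the other direction, CCL2, the monocyte chemokine, was at 129.7, 138 and 110.5 CPM under shPPP2R2A-2 against 29.6, 37.2 and 69 CPM with shPPP2R2A-1 (1.48, SE 0.29, adjusted p = 0.0064), and both groups were above shcon at 6.03 to 12.3 CPM. TNFSF9, the 4-1BB ligand, was at 102, 153 and 101 CPM against 36.3, 39.9 and 51.7 CPM (1.49, SE 0.22, adjusted p = 0.0019). Cytokines higher were 8 without replicate 3 of shPPP2R2A-1 and 3 without replicate 2 of shPPP2R2A-2, cytokines lower 5 without replicate 2 of shPPP2R2A-1 and 5 without replicate 3 of shPPP2R2A-2, and 2 NF-kB targets were higher without replicate 3 of shPPP2R2A-1.

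Interferon-stimulated genes split. Of 42 tested, shPPP2R2A-2 libraries had 9 (21.4%) higher and 3 (7.14%) lower, at a list median of 0.12, against 10.3% and 8.47% of all genes. GBP2, a guanylate-binding protein, was at 49.5, 37.7 and 32.0 CPM against 4.51, 5.36 and 5.68 CPM (2.95, SE 0.23, adjusted p = 0.00010), and its relative GBP1 was higher by 2.76 (adjusted p = 0.00082). The antiviral membrane proteins IFITM2, at 120.2, 133 and 111 CPM against 32.2, 36.1 and 32.0 CPM, and IFITM3 were higher by 1.87 and 2.02 at adjusted p of 0.00016 and 0.00029. BST2, or tetherin, rose by 3.22 (adjusted p = 0.0064) from 7, 3 and 6 counts. OAS3, a double-stranded RNA sensor, was lower at 45.8, 40.2 and 42.1 CPM against 104, 97.1 and 66.7 CPM (-1.05, SE 0.19, adjusted p = 0.0052) and was at 127 to 203 CPM with shcon. IRF1 and HERC5 were the other members called lower. Genes higher were 5 without replicate 2 of shPPP2R2A-2 and 5 without replicate 3 of shPPP2R2A-2, and genes lower were 6 without replicate 3 of shPPP2R2A-1 and 1 without replicate 2 of shPPP2R2A-1, replicate 2 of shPPP2R2A-2 or replicate 3 of shPPP2R2A-2.

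Sensors of cytosolic nucleic acid were called in both directions. MB21D1, which encodes the DNA sensor cGAS, was lower with shPPP2R2A-2 at 10.4, 9.01 and 9.48 CPM against 21.1, 27.5 and 21.1 CPM, with 14.4 to 18.1 CPM with shcon (-1.26, SE 0.20, adjusted p = 0.0027). Thus shPPP2R2A-1 libraries were all above and shPPP2R2A-2 libraries all below shcon. The comparisons of the hairpins with shcon gave 0.55 (adjusted p = 0.077) and -0.72 (adjusted p = 0.022). In H1299 MB21D1 was also lower with shPPP2R2A-2 (-1.34, adjusted p = 0.0038). The RNA sensors DDX58, or RIG-I, and IFIH1, or MDA5, were higher by 1.09 (SE 0.18, adjusted p = 0.0033) and 1.79 (SE 0.31, adjusted p = 0.0040), at 28.7 to 36.7 CPM against 14.8 to 15.4 CPM and at 3.92 to 5.67 CPM against 0.979 to 1.64 CPM. Of 19 tested genes of this list, 3 (15.8%) were higher and 2 (10.5%) lower, near the 10.3% and 8.47% of all genes. TRIM25 was among those lower (-0.51, adjusted p = 0.048). Genes higher were 6 without replicate 3 of shPPP2R2A-1, and genes lower were 1, MB21D1, without any 1 of the 5 other libraries.

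Of 16 tested genes chosen for PCR or blots, MB21D1 was lower and CCL2 and LMNA were higher. LMNA, which encodes nuclear lamins A and C, was higher at 582, 741 and 680.4 CPM against 334, 212 and 320.4 CPM (1.22, SE 0.21, adjusted p = 0.0038). TMEM173, which encodes STING, was at 1.28, 1.38 and 2.45 CPM against 1.42, 2.04 and 1.52 CPM (0.04, SE 0.36, adjusted p = 0.95), and CD274, which encodes PD-L1, at 3.36, 2.56 and 3.01 CPM against 3.02, 4.58 and 6.76 CPM (-0.67, SE 0.33, adjusted p = 0.18). Both overlapped between the hairpins. The difference was 0.23 for the kinase TBK1, 0.41 for IRF3, which relay the STING signal, and 0.23 for the kinase GSK3B, at adjusted p of 0.15 to 0.40. IFIT2, MX1 and CCL5 differed by -0.65, 0.57 and -0.20 at adjusted p of 0.076 to 0.80, and the reference genes ACTB and GAPDH by 0.26 and 0.10 at 0.41 and 0.78.

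Of 21 tested genes of MHC class I presentation, 1 (4.76%) was higher and 2 (9.52%) were lower. The share higher was below the 10.3% of all genes, and the share lower was near their 8.47%. The peptide transporter subunit TAP2 was lower at 13.7, 16.7 and 12.2 CPM against 25.5, 30.1 and 35.5 CPM (-1.09, SE 0.21, adjusted p = 0.0064). The immunoproteasome subunits PSMB9 and PSMB10 were called in opposite directions, -1.05 (adjusted p = 0.022) and 1.49 (adjusted p = 0.024). The PSMB9 call was lost without any 1 of the shPPP2R2A-2 libraries, and that of PSMB10 without any 1 library other than replicate 3 of either hairpin. Counts were 2 higher and 3 lower without replicate 3 of shPPP2R2A-1, and 1 lower without replicate 2 of shPPP2R2A-2.

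Feedback and immediate early genes of the ERK pathway were more often lower with shPPP2R2A-2, with 3 of 45 (6.67%) higher and 10 (22.2%) lower. Over all genes these shares were 10.3% and 8.47%. MAFF, a small MAF protein induced by growth signals, was at 5.17, 5.26 and 4.87 CPM against 11, 18.2 and 17.7 CPM (-1.60, SE 0.25, adjusted p = 0.0023), and the AP-1 subunit FOSL2 at 90.4, 107 and 104 CPM against 186, 190.0 and 232 CPM (-1.0, SE 0.17, adjusted p = 0.0031). In neither did the hairpins overlap. PLAU, the urokinase, DUSP5, a nuclear ERK phosphatase, and SPRY2, a receptor feedback inhibitor, were lower by -1.81, -1.62 and -1.16 at adjusted p of 0.0052 to 0.0088. EPHA4, an ephrin receptor, was the member with the smallest p among those higher, at 6.4 to 6.5 CPM against 1.82 to 2.35 CPM (1.65, SE 0.25, adjusted p = 0.0022), beside JUNB and KLF2. The calls of JUNB and KLF2 were lost without replicate 1 or 2 of shPPP2R2A-1 or replicate 2 or 3 of shPPP2R2A-2. KLF2 also lost its call with all 9 A549 libraries in the fit. Members lower were 6 without replicate 2 of shPPP2R2A-1 and 6 without any 1 shPPP2R2A-2 library, and members higher were 1 without replicate 1 of shPPP2R2A-1 or replicate 2 of shPPP2R2A-2 and 6 without replicate 3 of shPPP2R2A-1 or replicate 1 of shPPP2R2A-2.

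DNA replication genes that were called were all lower with shPPP2R2A-2. Of 51 tested, 16 (31.4%) were lower and none was higher, with a list median of -0.46 and 3 members above 0. Of all genes, 8.47% were lower and 10.3% higher. TIMELESS, a fork protection protein, was at 37.7, 32.7 and 34.1 CPM against 145, 149 and 93.3 CPM under shPPP2R2A-1, where shcon was at 211 to 266 CPM (-1.88, SE 0.21, adjusted p = 0.00050). Its partner TIPIN was lower by -1.53 (SE 0.23, adjusted p = 0.0021). GINS1, a subunit of the replicative helicase complex, was at 30.8, 24.4 and 17.7 CPM against 91.1, 97.7 and 62.9 CPM (-1.77, SE 0.25, adjusted p = 0.0014), and 95.9 to 114 CPM with shcon. In none of these 3 genes did the hairpins overlap, and for TIMELESS and GINS1 replicate 3 of shPPP2R2A-1 was the nearest to shPPP2R2A-2. The polymerase epsilon subunit POLE2, the primase PRIM1 and the helicase subunits MCM2 and MCM6 were lower by -1.39, -1.24, -1.03 and -0.98 at adjusted p of 0.0059 to 0.012.

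The size of this group rested on which libraries were used. The count of DNA replication genes lower was 36 without replicate 3 of shPPP2R2A-1, 8 without replicate 1 of shPPP2R2A-1, 6 without replicate 2 of shPPP2R2A-1, 6 without replicate 2 of shPPP2R2A-2 and 9 without replicate 3 of shPPP2R2A-2. Over the 51 genes the median level was 53.3, 52.0 and 31.9 CPM under shPPP2R2A-1 and 32.4, 31.0 and 33.6 CPM under shPPP2R2A-2, with 62.2 to 79.8 CPM with shcon. Replicate 3 of shPPP2R2A-1 was therefore at the level of shPPP2R2A-2, and the list medians overlapped. Of 57 tested mitosis genes, 3 (5.26%) were lower, CDC20 (-0.86), CENPN (-1.0) and BUB1B (-0.96), and none was higher. That share lower was below the 8.47% of all genes. Mitosis genes lower were 42 without replicate 3 of shPPP2R2A-1, 1 without replicate 1 of shPPP2R2A-2 and 0 without any 1 of the other 4. Their median level was 54.6, 56.4 and 23.1 CPM against 32.7, 28.1 and 35.3 CPM over the 57 genes, so the lowest library of the 6 was replicate 3 of shPPP2R2A-1. Of 58 tested DNA repair genes, 10 (17.2%) were lower and none higher, against 8.47% and 10.3% of all genes. Among those lower was FANCD2 of the Fanconi anemia pathway (-1.07, SE 0.25, adjusted p = 0.016). Repair genes lower were 26 without replicate 3 of shPPP2R2A-1, 2 and 1 without replicates 1 and 2 of shPPP2R2A-1, and 4, 1 and 3 without replicates 1, 2 and 3 of shPPP2R2A-2. The FANCD2 call was lost without replicate 2 of either hairpin.

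**Figure D4:**
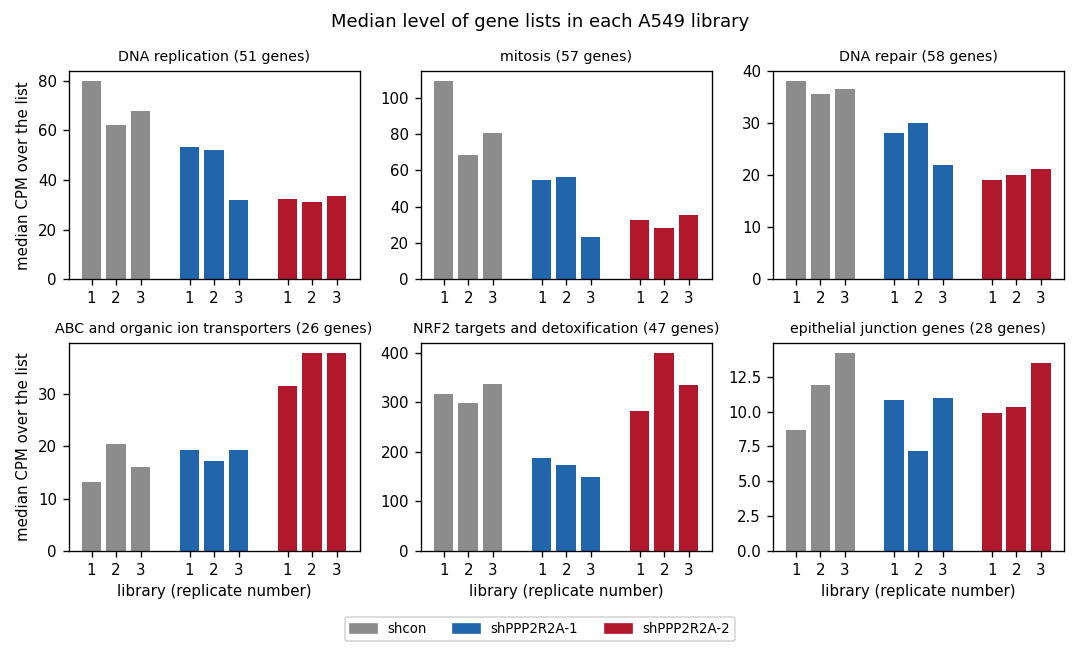
Median CPM over the tested members of 6 gene lists in each A549 library (bars, 3 libraries for each of shcon, shPPP2R2A-1 and shPPP2R2A-2, numbered by replicate). DNA replication and mitosis genes were lowest in the 3 shPPP2R2A-2 libraries and in replicate 3 of shPPP2R2A-1, NRF2 targets and transporters were higher in each shPPP2R2A-2 library than in each shPPP2R2A-1 library, and epithelial junction genes overlapped.

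Promoters of GINS1 and MCM6 are shown because TTTGGCGC, a site bound by E2F factors, was found in 0.659% of the 27305 RefSeq promoters and in 4 of the 14 found for the 16 replication genes called lower (MCM6, CDC6, GINS1 and POLE2). The windows (GRCh38.p14, 250 bases before to 50 after the start, 5′ to 3′ on the strand of the gene) lie at chr20:25407423-25407722 on the plus strand for GINS1 and chr2:135876394-135876693 on the minus strand for MCM6. Capitals mark TTTGGCGC on either strand. This motif too was chosen with the results known, and a match describes letters in a window, not binding. Promoters of replication genes that were not called were not counted, so whether the share goes with the hairpin difference was not tested. The call of CDC6 was lost without any 1 library other than replicate 3 of shPPP2R2A-1.
GINS1: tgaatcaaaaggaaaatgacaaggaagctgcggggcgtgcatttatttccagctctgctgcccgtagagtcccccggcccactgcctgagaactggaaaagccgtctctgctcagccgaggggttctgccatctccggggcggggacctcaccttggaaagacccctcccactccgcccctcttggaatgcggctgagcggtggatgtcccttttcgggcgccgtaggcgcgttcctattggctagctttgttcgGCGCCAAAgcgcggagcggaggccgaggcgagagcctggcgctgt
MCM6: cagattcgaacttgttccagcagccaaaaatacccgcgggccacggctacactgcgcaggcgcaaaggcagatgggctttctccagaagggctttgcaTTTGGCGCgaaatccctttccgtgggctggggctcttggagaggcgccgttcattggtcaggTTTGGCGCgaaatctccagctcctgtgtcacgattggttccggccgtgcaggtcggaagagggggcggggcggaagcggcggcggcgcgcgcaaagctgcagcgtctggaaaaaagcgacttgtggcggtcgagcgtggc
MCM6 was at 108, 106 and 63.2 CPM under shPPP2R2A-1 against 50.7, 43.3 and 45.8 CPM with shPPP2R2A-2, and its call was lost without replicate 2 of either hairpin, at adjusted p of 0.055 and 0.061. E2F2, an activating E2F factor, was at 12.4, 10.0 and 4.8 CPM against 3.05, 2.52 and 2.81 CPM (-1.68, SE 0.34, adjusted p = 0.0081).

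Regulators of the G1 phase moved in both directions, with 7 of 28 (25.0%) higher and 5 (17.9%) lower, against 10.3% and 8.47% of all genes. CDK4 was at 187, 215 and 203 CPM against 88.0, 75.9 and 66.5 CPM under shPPP2R2A-1, where shcon was at 239 to 299 CPM (1.40, SE 0.17, adjusted p = 0.00072). CDK6, which shares its cyclin D partners, and CCND3, which is one of them, were higher by 1.75 (adjusted p = 0.0023) and 1.31 (adjusted p = 0.00098), together with the CDK4 inhibitors CDKN2C (1.90, adjusted p = 0.0058) and CDKN2D (1.56, adjusted p = 0.0062). CDKN1A, which encodes p21, was at 761, 975 and 983 CPM against 426, 372 and 580.2 CPM and 106 to 148 CPM with shcon (0.99, SE 0.21, adjusted p = 0.0099), although it missed the threshold at 0.050 without replicate 2 of shPPP2R2A-2. CDC25A, a phosphatase that activates CDK2, was lower by -1.11 (adjusted p = 0.0045). Members lower were 3, 8, 3, 2 and 2 without replicate 2 of shPPP2R2A-1, replicate 3 of shPPP2R2A-1 and replicates 1, 2 and 3 of shPPP2R2A-2, respectively.

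Of 39 tested apoptosis regulators, 4 (10.3%) were higher and 8 (20.5%) lower, against 10.3% and 8.47% of all genes, so the share higher was that of all genes. TNFRSF10B, the death receptor DR5, was lower at 179, 202 and 185 CPM against 354, 360.2 and 407 CPM (-0.98, SE 0.16, adjusted p = 0.0027). The pore-forming BAK1 was higher at 30.3, 36.5 and 38.5 CPM against 14.1 ± 0.874 CPM (SD, n = 3; 1.32, SE 0.18, adjusted p = 0.0014), and the survival protein gene BCL2A1 was lower at 2.90, 2.88 and 2.60 CPM against 3.80, 10.8 and 27.9 CPM (-2.33, SE 0.57, adjusted p = 0.018). BCL2A1 was highest in replicate 3 of shPPP2R2A-1, was -1.39 without that library, and lost its call at adjusted p of 0.054 and 0.061 without replicate 2 or 3 of shPPP2R2A-2. Regulators higher were 10, 1 and 2 without replicate 3 of shPPP2R2A-1, replicate 2 of shPPP2R2A-2 and replicate 3 of shPPP2R2A-2, and regulators lower were 5 and 4 without replicates 1 and 2 of shPPP2R2A-1 and 5, 2 and 4 without replicates 1, 2 and 3 of shPPP2R2A-2.

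Mesenchymal and matrix genes were called in both directions. Of 27 tested mesenchymal genes, 5 (18.5%) were higher and 6 (22.2%) lower. The contractile genes ACTA2, at 129, 107 and 111 CPM against 38.7, 39.1 and 51.6 CPM (1.43, SE 0.18, adjusted p = 0.0010), and MYL9, at 48.9, 25.9 and 14.2 CPM against 4.03, 1.67 and 6.0 CPM (2.94, SE 0.52, adjusted p = 0.0043), were higher. The matrix gene LUM was lower by -1.54 (adjusted p = 0.0059), at 1.80 to 2.75 CPM against 5.12 to 8.33 CPM, and FAP, the fibroblast activation protease, by -3.73 (adjusted p = 0.0035), at no more than 0.949 CPM. Members higher were 2 without replicate 2 of shPPP2R2A-1 and members lower 2 without replicate 2 of shPPP2R2A-2. Of 35 tested collagens and basement membrane genes, 4 (11.4%) were higher and 3 (8.57%) lower, near the 10.3% and 8.47% of all genes, but 16 were higher and 3 lower without replicate 3 of shPPP2R2A-1, and 2 were higher without replicate 1 of shPPP2R2A-2.

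Of 32 tested extracellular proteases and inhibitors, 11 (34.4%) were higher and 5 (15.6%) lower. For this list and the TGF-beta list below, the shares over all genes were 10.3% and 8.47%. MMP7, or matrilysin, was higher at 110.3, 50.4 and 41.4 CPM against 24.1, 17.6 and 13.4 CPM (1.88, SE 0.37, adjusted p = 0.0064), together with MMP10 (2.78) and the cystatin CST1 (3.67), whereas the membrane-bound MMP14 and MMP15 were lower by -2.24 (adjusted p = 0.0030) and -2.07 (adjusted p = 0.0059) and ADAM12 by -1.91 (adjusted p = 0.0070). Proteases higher were 6, 5 and 7 without replicate 2 of shPPP2R2A-1, replicate 1 of shPPP2R2A-2 and replicate 2 of shPPP2R2A-2. Of 32 TGF-beta targets and components, 10 (31.2%) were higher and 3 (9.38%) lower, with the decoy receptor BAMBI at 66.9, 65.6 and 70.4 CPM against 23.6, 19.9 and 17.0 CPM (1.75, SE 0.18, adjusted p = 0.00040) and the signalling receptor TGFBR1 at 67.8, 67.4 and 59.3 CPM against 168, 113 and 149 CPM (-1.14, SE 0.19, adjusted p = 0.0031). These counts were 5 higher without replicate 2 of shPPP2R2A-1, 4 higher and 1 lower without replicate 2 of shPPP2R2A-2, and 6 higher without replicate 3 of shPPP2R2A-2.

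Of 40 tested axon guidance receptors and ligands, 13 (32.5%) were higher and 2 (5.00%) lower, but the list median was 0.14. All genes tested had 10.3% higher and 8.47% lower. PLXNA2, a semaphorin receptor, was at 22.1, 18 and 19.6 CPM against 4.66, 2.81 and 3.35 CPM (2.47, SE 0.25, adjusted p = 0.00039), and the ephrin EFNB3 was higher by 2.21 (adjusted p = 0.0082). The count higher was 6, 8, 4 and 8 without replicate 2 of shPPP2R2A-1 and replicates 1, 2 and 3 of shPPP2R2A-2, and the count lower was 4 without replicate 3 of shPPP2R2A-1, 0 without replicate 2 of shPPP2R2A-2 and 1 without replicate 1 of shPPP2R2A-1, replicate 1 of shPPP2R2A-2 or replicate 3 of shPPP2R2A-2. Of 43 tested growth factors and receptors, 10 (23.3%) were higher and 6 (14%) lower, with 4 higher and 3 lower without replicate 2 of shPPP2R2A-1, 4 higher without replicate 2 of shPPP2R2A-2 and 6 higher without replicate 3 of shPPP2R2A-2. IGF2 was at 79.5, 93.1 and 53 CPM against 17.8, 5.43 and 8.40 CPM (2.84, SE 0.40, adjusted p = 0.0015), PDGFD at 65.7, 59.4 and 64.5 CPM against 18, 18.6 and 10.4 CPM (2.02, SE 0.23, adjusted p = 0.00061), and the receptor gene NTRK3 was higher by 1.76 (adjusted p = 0.00089). The hairpins did not overlap in any of these 3 genes.

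Of 36 tested lysosome and autophagy genes 7 (19.4%) were higher and 4 (11.1%) lower, and of 34 genes of fatty acid synthesis and lipid storage 8 (23.5%) and 4 (11.8%). All genes had 10.3% higher and 8.47% lower, so both shares lower were near that of all genes. CTSB, the lysosomal protease cathepsin B, was at 889.9, 874 and 855 CPM under shPPP2R2A-2 against 1846, 2763 and 2816 CPM with shPPP2R2A-1 (-1.49, SE 0.20, adjusted p = 0.0013). The autophagy kinase gene ULK1 was higher by 1.60 (adjusted p = 0.0016) and BECN1, a subunit of the autophagy lipid kinase complex, lower by -1.06 (adjusted p = 0.0081). PLIN2, the coat protein of lipid droplets, was lower by -1.36 (adjusted p = 0.0012), and LPIN1, a phosphatidate phosphatase, and SREBF1, a regulator of lipid synthesis, were higher by 1.57 (adjusted p = 0.0020) and 1.12 (adjusted p = 0.0081). Lists of basic cell machinery held few calls, with 3 of 77 cytosolic ribosomal proteins higher and 2 lower, 0 of 71 nuclear-encoded respiratory chain subunits higher and 1 lower, and 0 of 13 mitochondrially encoded mRNAs in either direction. Of the last, 3 were lower without replicate 1 and 2 higher without replicate 3 of shPPP2R2A-1. Ribosomal counts were 7 and 2 without replicate 3 of shPPP2R2A-1 and 0 and 0 without replicate 2 of shPPP2R2A-2, respiratory chain counts 13 and 3 and 0 and 0. Lysosome genes higher were 12 without replicate 3 of shPPP2R2A-1, 3 without replicate 2 of shPPP2R2A-1 or replicate 1 of shPPP2R2A-2, and 2 without replicate 2 or 3 of shPPP2R2A-2. Lipid genes higher ranged from 2, without replicate 2 of shPPP2R2A-2, to 11, without replicate 3 of shPPP2R2A-1, and lipid genes lower from 1 to 6 for the same libraries.

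The same hairpins were used in H1299, whose libraries share none with A549, so the hairpin difference could be read a second time. In H1299, 1331 of 15566 genes (8.55%) were higher and 926 (5.95%) lower with shPPP2R2A-2. Over the 14144 genes tested in both lines, 1247 were higher and 1203 lower in A549, and 1229 and 865 in H1299. Genes higher in both were 499, which is 40.0% of the A549 list and 40.6% of the H1299 list, and genes lower in both were 423, or 35.2% and 48.9%. Among all 14144 genes, 8.69% were higher and 6.12% lower in H1299. Higher in A549 and lower in H1299 were 7 genes, and 26 the reverse. These counts rested on single libraries. Genes higher and lower in both lines were 317 and 239 without replicate 2 of shPPP2R2A-1 in A549, and 292 and 190 without replicate 2 of shPPP2R2A-2 there. Without replicates 1, 2 and 3 of shPPP2R2A-1 in H1299 they were 203 and 193, 256 and 231, and 135 and 142, and without replicate 2 of shPPP2R2A-2 in H1299 they were 254 and 204. Calls within H1299 ranged from 261 to 2290 higher and from 202 to 2154 lower with 1 library left out. Of the 1247 genes higher in A549, 1134 (90.9%) had a positive difference in H1299, against 52.4% of all genes, and of the 1203 lower in A549, 1014 (84.3%) had a negative one, against 47.6%. The median H1299 difference was 0.77 and -0.56 over these lists and 0.03 over all genes. Across genes, which are not independent replicates, Pearson's r between the lines was 0.50 and Spearman's rho 0.55.

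**Figure D5:**
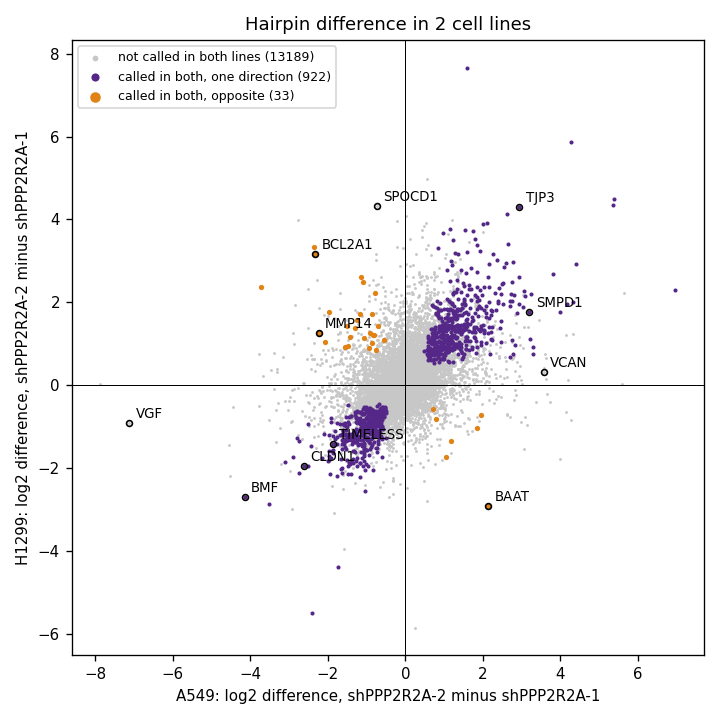
Log2 difference between the hairpins (shPPP2R2A-2 minus shPPP2R2A-1) in A549 (horizontal axis) and in H1299 (vertical axis) for the 14144 genes tested in both lines, 1 point a gene. Genes called in both lines lay mostly in the upper right (499) and lower left (423) of the plot, with TJP3, SMPD1, BMF and CLDN1 among them, and 33 genes such as BAAT, MMP14 and BCL2A1 were called in opposite directions.

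Genes named above fell on both sides of this comparison. SMPD1 rose in H1299 from 9.38 ± 1.44 to 31.8 ± 4.65 CPM (SD, n = 3; 1.76, adjusted p = 0.0022), TJP3 by 4.31 (adjusted p = 0.0024), CDK4 by 1.81 (adjusted p = 0.0017), BAK1 by 1.16 (adjusted p = 0.0062) and ACTA2 by 1.45 (adjusted p = 0.021). Genes lower in both lines included BMF (-2.70 in H1299, adjusted p = 0.0088), CLDN1 (-1.94, adjusted p = 0.0017), SDC4 (-1.72, adjusted p = 0.0037), TIMELESS (-1.43, adjusted p = 0.0036), GINS1 (-1.43, adjusted p = 0.0021) and TNFAIP3 (-1.07, adjusted p = 0.020). Many of the genes that led in A549 had no readable level in H1299. HABP2, GPX2, CLDN2, SLC22A3 and IL6 averaged at most 0.111 CPM in either hairpin group there and were not tested. Among all A549 calls, 468 higher and 209 lower genes were not tested in H1299. The difference between the lines, tested as an interaction in 18262 genes, was called higher in A549 for 99 genes (0.542%) and lower for 189 (1.03%). Among lists above, H1299 had 2 of 51 DNA replication genes higher and 7 lower, and 6 of 57 mitosis genes higher and 0 lower. Of 35 interferon-stimulated genes 11 were higher and 0 lower there, against 8.55% and 5.95% of all genes. Medians were -0.17, 0.15 and 0.66. No member of these lists was called in the test between the lines.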

How the data were processed

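RNA-seq counts per gene were analysed as the authors deposited them, whole-number counts for 57773 genes in 18 libraries of A549 and H1299. Per the submitters' processing notes the build was GRCh37/hg19 and the tools, in no stated order, included STAR 2.7.3a, Bowtie2, HTSeq 0.11.2, Cufflinks 2.2.1, DESeq2, cutadapt 2.5 and FastQC 0.11.8. A second deposited column per library, a normalized signal that equals the authors' counts divided by 1 size factor per library, was not used, and 0 other columns of per-sample values were left out. The hairpins were compared within A549 with edgeR 4.0.16 (R 4.3.3; TMM, filterByExpr, robust quasi-likelihood test, Benjamini-Hochberg adjusted p, threshold 0.05), with only the 6 KD libraries in the fit. The SE of a log2 difference was its size over the square root of F. CPM are counts over library totals scaled by the TMM factors. The scripts were tested on simulated data.

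Replicates are separate libraries whose origin from separate cultures is not given in the sources used here, so p-values measure the spread between libraries. The same fit was run for H1299, for each hairpin against shcon, and for the difference between lines as an interaction. Alternatives were DESeq2 1.42.0, limma-voom (limma 3.58.1), other size factors, other filters, a fold threshold, all 9 A549 libraries, a replicate block and leaving out each library. Of 1789 genes in 56 lists, 1773 were in the table, 64 under another symbol. Members and lists were chosen with earlier results of these data known. Genes were named by a rule: PPP2R2A and genes the study measured by PCR or blot, the 12 highest and 12 lowest called differences among genes averaging 100 counts or more without overlap, the 6 smallest p in each direction, up to 4 members of a list by adjusted p (8 where at least 10 were called), and the 6 highest and 6 lowest line differences. Genes outside the rule were chosen after their values were seen. Some genes that the rule names are not reported here. Promoters are from RefSeq.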

Additional observations from a re-analysis of the deposited data

Results flagged for a closer look

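The hairpin difference was tested for a difference between A549 and H1299 by an interaction term in edgeR, and 99 genes had a higher and 189 a lower difference in A549. Values below are the A549 difference minus the H1299 difference, each on the log2 scale, with an adjusted p under 0.05.

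Among genes higher with shPPP2R2A-2 in A549, the line difference was 3.22 for VCAN, 1.41 for SMPD1, 2.38 for AKR1B10, 2.01 for EPHX1 and 1.5 for the RNA sensor gene IFIH1. SMPD1 was higher with shPPP2R2A-2 in both lines, by 3.19 in A549 and 1.76 in H1299, whereas VCAN was higher by 3.57 in A549 and differed by 0.32 in H1299. BAAT, a bile acid conjugating enzyme, had a line difference of 5.01 and was called in opposite directions, 2.13 in A549 and -2.91 in H1299. For the pseudogene ANKRD19P it was 5.54.

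Among genes lower with shPPP2R2A-2 in A549, the line difference was -6.24 for VGF, -3.97 for DAW1, -4.55 for SLC6A17, -3.90 for APOE, -2.88 for CHGB, -2.08 for GPR176, -1.86 for CSF1, -2.11 for PLAU, -2.47 for CTSB and -1.62 for PLIN2. The call was opposite in the lines for BCL2A1 (-5.52; -2.33 in A549 and 3.17 in H1299) and MMP14 (-3.51; -2.24 and 1.25).

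The line difference was also negative for SPOCD1, at -5.09, with -0.74 in A549 (adjusted p = 0.31, edgeR) and 4.33 in H1299. For C1orf116, higher with shPPP2R2A-2 in both lines, it was -5.98, with 1.59 in A549. C1orf116 was at 0 CPM in every H1299 shPPP2R2A-1 library and at 0.468 CPM on average in H1299 with shPPP2R2A-2, so the size of its line difference rests on the prior count.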

How the results depend on the processing

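With RLE size factors the A549 counts were 1704 higher and 1410 lower, with limma-voom 1835 and 1435, with all 9 A549 libraries 1644 and 1379, and with at least 10 counts in every library 1503 and 1276. DESeq2 gave 2272 and 2021, and no filter on low counts 2348 and 1857. Tested against a log2 difference of 1, edgeR called 316 and 135. In H1299 no filter gave 2005 higher and 1450 lower, and DESeq2 1607 lower. Line differences were 368 higher and 536 lower with DESeq2 and 411 and 573 with no filter. Genes higher in both lines were 807 with DESeq2 and 806 with no filter, genes lower in both were 738 with DESeq2, and genes in opposite directions were 81 with DESeq2 and 100 with no filter. The cause of these shifts was not tested.

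Same-numbered A549 libraries of the hairpins did not deviate together (r of -0.161, -0.031 and -0.289 over genes), so the numbers were not read as pairs. No such check was run for H1299. With a replicate block the A549 counts were 997 higher and 610 lower, against 1715 and 1412 without it. In H1299 they were 1993 and 1466 with the block, against 1331 and 926, so the block moved the counts in opposite directions in the lines. Genes lower in both lines were 262 with the block, against 423.

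Leaving out 1 library gave 918 to 2700 higher and 523 to 2282 lower genes in A549, 261 to 2290 and 202 to 2154 in H1299, 41 to 114 higher and 64 to 258 lower line differences, 135 to 630 genes higher and 142 to 575 lower in both lines, and 7 to 61 in opposite directions. Of 154 called genes named in the text, DESeq2 and RLE size factors each kept all 154 calls, limma-voom 150, all 9 libraries 148, no filter 146, the block 136, and leaving out 1 library 130 to 151. None of these 154 genes changed sign in these settings, and 133 of the 154 had enough counts for the stricter filter. Genes with few counts are limited by depth, and 3 libraries a group limit every comparison.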
